A study of Chlamydomonas reinhardtii with 12 samples.

Results

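The genes described here are the 10 nitrogen uptake and assimilation genes *NIT1*, *NIT2*, *NII1*, *NRT2.1*, *AMT4*, *GLN1*, *GLN2*, *GLN3*, *GSN1* and *GSF1* of the green alga *Chlamydomonas reinhardtii*. They were taken by gene identifier from a table of 17741 genes, and all 10 were found in it. Of these, 8 passed the filter on low counts (CPM, the count scaled by library size, above 1 in at least 4 libraries), which 14251 genes passed in all, and *NIT1* and *NRT2.1* did not. A transcript for nitrite reductase was close to absent in low light and present after high light in both genotypes. An ammonium transporter transcript was high in the *phot* mutant at either light intensity. Among the glutamine and glutamate synthase genes, the light responses of *GLN1*, *GLN3*, *GSN1* and *GSF1* differed between the genotypes, and that of *GLN2* did not detectably. Such a difference was found for 51.8% of all tested genes.

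Nitrogen enters the alga as nitrate or ammonium. Nitrate is taken up by transporters such as NRT2.1, reduced to nitrite by nitrate reductase (NIT1) and to ammonium by nitrite reductase (NII1), and the nitrate genes are activated by NIT2, a transcription factor of the RWP-RK/Nin-like type, and repressed by ammonium. Ammonium is taken up by transporters of the AMT family, to which AMT4 belongs. Ammonium from either source is built into glutamine by glutamine synthetase (GLN1 in the cytosol, GLN2 in the chloroplast, and a further gene, *GLN3*), and glutamate synthase (GOGAT) turns glutamine and 2-oxoglutarate into glutamate, with NADH as the reductant for GSN1 and reduced ferredoxin, which the photosynthetic light reactions supply, for GSF1.

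RNA was sequenced from 12 cultures, 3 in each of 4 groups, of the wild type (WT) CC-125 and the *phot* mutant, which lacks functional *PHOT1*, the gene of the blue light receptor phototropin. All cultures were grown in a medium with Tris, acetate and phosphate, at 15 µmol photons m-2 s-1 by the study's general methods. Its RNA sequencing methods give 5 in the same unit for CC-125 in that medium. The cultures of all groups were then moved to the acetate-free medium HSM. They were acclimated to it at an intensity of 5, in the same unit, before any high light exposure. The low light groups (WT LL and *phot* LL) were sampled at an intensity of 5, and the high light groups (WT HL and *phot* HL) after 60 min at an intensity of 300, in the same unit. Both media supply ammonium in their standard recipes. The labels do not state alleles of the *nit* loci for either strain, and CC-125 is known to carry mutations in *NIT1* and *NIT2* that prevent growth on nitrate. The mutant is a single strain and no complemented strain was sequenced here. LL was sampled before the high light exposure, so light and the time that passed during it cannot be told apart. In bulk cultures, a change in every cell cannot be told apart from a change in some of the cells.

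The 12 libraries held 27136674 to 33906264 counts. The *PHOT1* transcript matched the labels in every library, with 308 to 325 CPM in the WT libraries of LL and 240 to 250 CPM in those of HL, against 3.87 to 4.56 and 4.33 to 4.76 CPM in *phot*. Levels are given as CPM after scaling with TMM factors (trimmed mean of M-values). Differences are log2 fold changes ± SE from the quasi-likelihood test of edgeR, with p-values adjusted over all 14251 genes by the Benjamini-Hochberg method. The TMM factors differed by genotype, with 0.66 to 0.863 (LL) and 0.885 to 1 (HL) in WT against 1.09 to 1.21 (LL) and 1.13 to 1.23 (HL) in *phot*. With library totals alone, the median over all genes moved from 0.22 to 0.79 for *phot* versus WT in LL, from 0.05 to 0.36 for *phot* versus WT in HL, and from 0.05 to 0.31 for HL versus LL in WT. Small differences between the genotypes therefore depended on the scaling, and those that turned are named with their genes.

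The nitrite reductase gene *NII1* (Cre09.g410750, chromosome 9, 6978922 to 6984869, RefSeq annotation of assembly v5.5, as for all positions given here) had the largest light response of the 10 genes. In WT LL, the 3 libraries held 0, 0 and 1 counts of *NII1*. In *phot* LL they held 5, 3 and 2 counts. After high light the counts were 157, 112 and 88 in WT and 248, 177 and 124 in *phot*. Every HL library thus lay above every LL library, and the ranges of the HL groups overlapped between the genotypes. The mean level after high light was 4.33 ± 1.86 CPM in WT and 5.21 ± 1.93 CPM in *phot* (SD, n = 3).

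All WT LL libraries were at or under 3 counts per library, the limit that a count of 0 allows, so high light raised *NII1* in WT at least 32-fold, or at least 24.1-fold without WT HL A, the library that moved this bound most. In *phot*, *NII1* rose by 5.66 ± 0.48 on the log2 scale (50.4-fold, adjusted p = 2.21e-07). The gene passed the filter through its HL libraries alone, and *phot* LL B and *phot* LL C were at or under the limit of 3 counts, so the fitted value rests on few LL counts. The summed counts of 549 against 10 gave a ratio of 52 after scaling, with a 95% interval of 28.1 to 109 that covers counting error only. Between the genotypes, the HL difference of *NII1* was 0.28 ± 0.28 (adjusted p = 0.385), and it was 0.64 (adjusted p = 0.0353) without WT HL A and -0.09 without *phot* HL A. The 10 counts in *phot* LL against 1 in WT LL gave a ratio of 6.7 with an interval of 0.953 to 291, and although the libraries did not overlap, the fitted LL difference of 2.44 ± 1.58 did not pass the threshold (adjusted p = 0.176). With library totals it was 2.92 (adjusted p = 0.0443). For *NII1*, the genotype by light interaction, which is the response to light of *phot* minus the response of WT, was -2.16 ± 1.62 (adjusted p = 0.279).

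**Figure D1:**
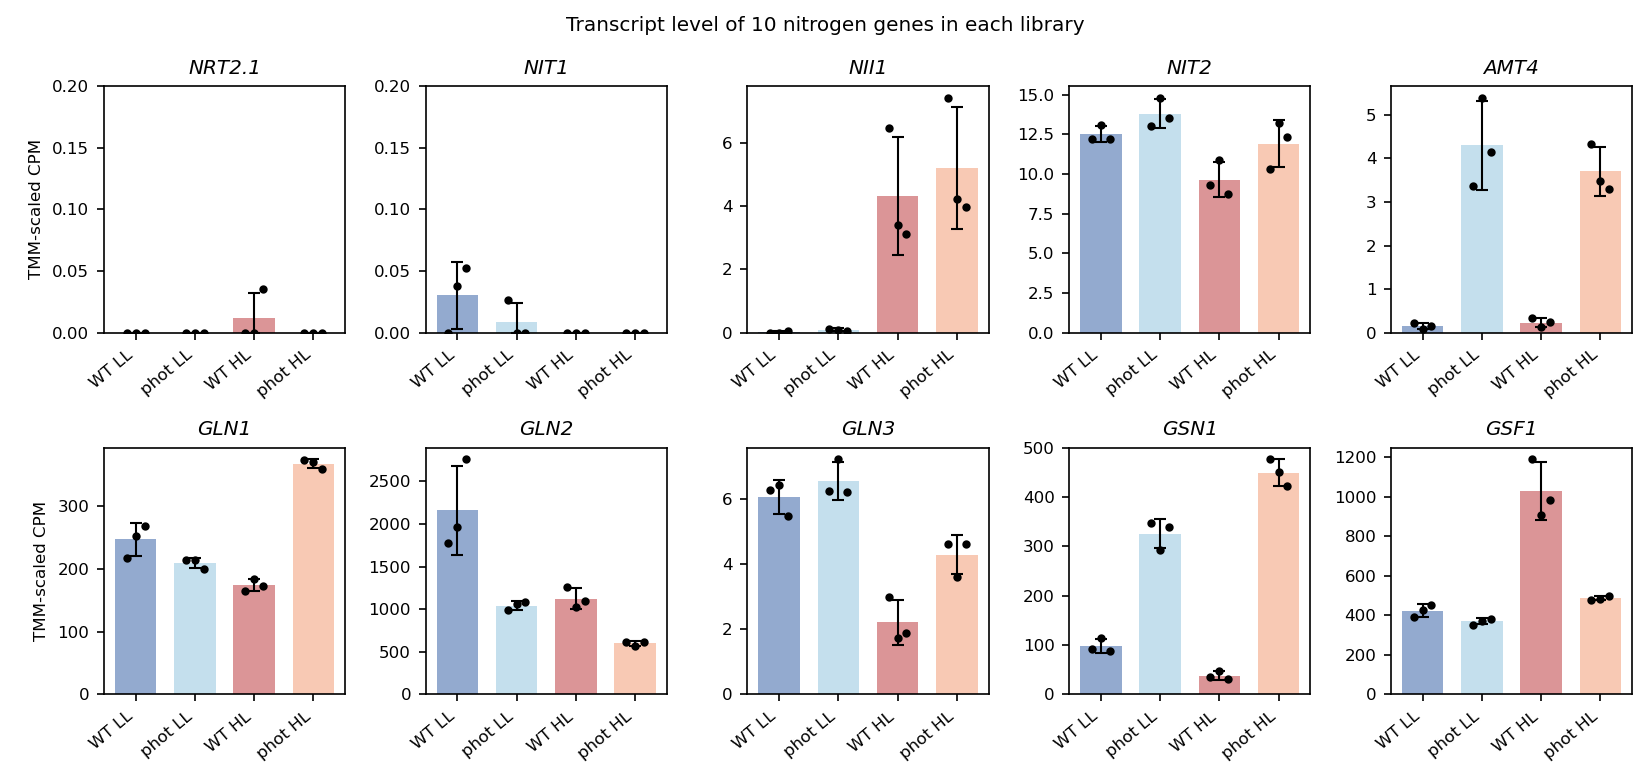
TMM-scaled CPM of the 10 genes, with a linear axis from 0 in each panel and its own range; points are the 3 libraries of a group, bars the mean and error bars the SD (n = 3, the lower end stopped at 0). *NII1* is near 0 in LL and 3.11 to 7.43 CPM in HL, *AMT4* is near 0 in WT and 3.29 to 5.39 CPM in *phot*, and *GSN1* is higher in both *phot* groups than in either WT group.

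The other nitrate genes on the same stretch of chromosome 9 did not follow *NII1*. The nitrate reductase gene *NIT1* (Cre09.g410950, chromosome 9, 6998940 to 7006736) held 0, 1 and 1 counts in WT LL, 1, 0 and 0 counts in *phot* LL, and 0 counts in all HL libraries. The nitrate transporter gene *NRT2.1* (Cre09.g410850, chromosome 9, 6991287 to 6995219) held 1 count in WT HL C and 0 counts in the other libraries. Both genes were at or under the limit of 3 counts in every library, which corresponds to 0.0885 to 0.111 CPM by library total, and no difference between groups was detectable for them at this depth. *NII1* and *NIT1* lie at the ends of a stretch of 27815 bases with *NRT2.1* between them, and 2 further genes of the stretch have no name in the annotation used here. One of these, Cre09.g410800 (6986662 to 6990589), held 4, 1 and 1 counts in *phot* LL, 1 count each in WT HL B and *phot* HL A, and 0 counts elsewhere. The other, Cre09.g410900 (6995340 to 6997448), held 6, 25 and 9 counts in the LL and 1, 8 and 3 in the HL libraries of WT, against 67, 48 and 46 and then 3, 3 and 6 in *phot*. Its mean level was thus highest in *phot* LL (1.59 ± 0.202 CPM) and lower in each HL group, but it did not pass the filter and was not tested.

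Of the 5 annotated genes on either side of the stretch, all 10 passed the filter. In the WT light response, 2 of these 10 rose and 3 fell, where 73.9% of all tested genes passed the threshold. With library totals 3 rose and 1 fell (71.3% of all genes). In *phot*, 4 rose and 3 fell (58.9% of all genes), or 3 and 3 with library totals (51%). The gene next to *NII1*, Cre09.g410700, also rose after high light, by 2.34 ± 0.14 in WT (adjusted p = 1.72e-09) and by 1.99 ± 0.14 in *phot* (adjusted p = 3.03e-08). Its level went from 487 ± 45.4 to 2470 ± 415 CPM in WT and from 401 ± 9.95 to 1600 ± 111 CPM in *phot* (SD, n = 3). Cre09.g411200, the fourth gene after *NIT1*, rose by 1.79 ± 0.14 in WT (adjusted p = 2.4e-08) and by 1.02 ± 0.13 in *phot* (adjusted p = 1.62e-05). The farthest gene on the side of *NII1*, Cre09.g410450, had a log2 change of -3.41 in WT (adjusted p = 1.72e-07) and of -5.34 in *phot* (adjusted p = 1.74e-08). A rise after high light was therefore seen in single genes around the stretch and not along it as a whole.

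**Figure D2:**
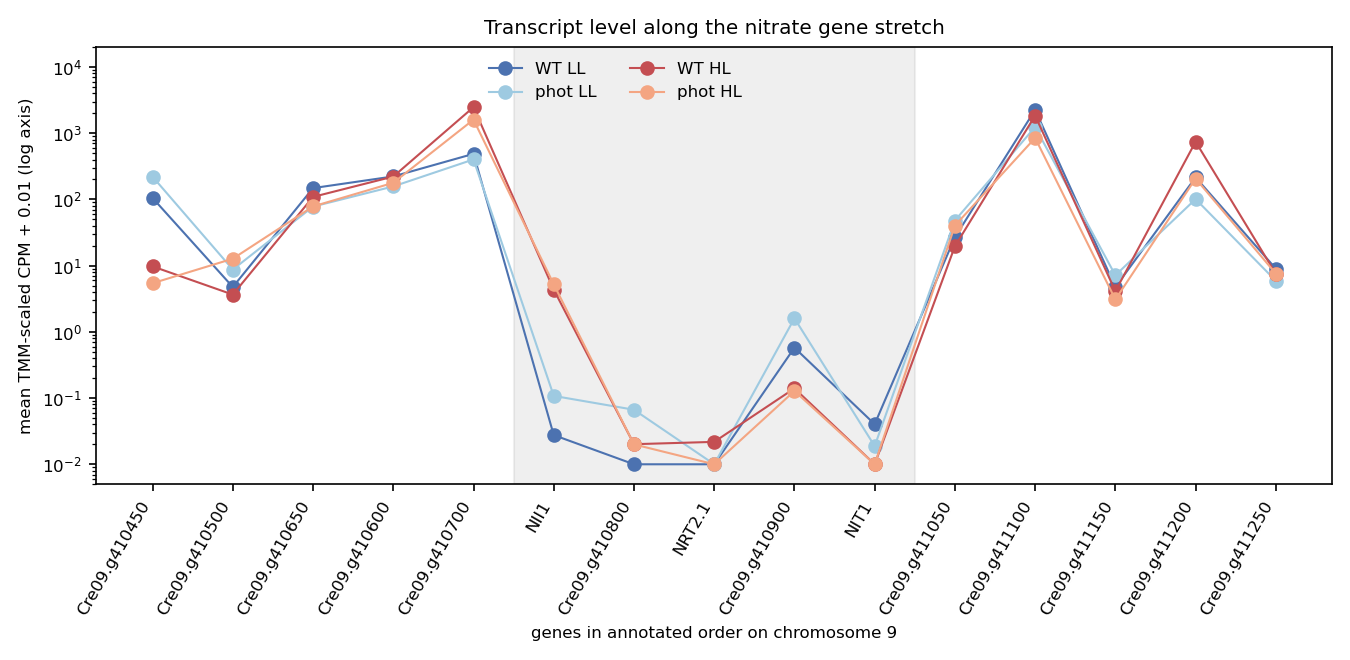
Mean TMM-scaled CPM plus 0.01, on a log axis, of the 15 genes from 5 before to 5 after the nitrate stretch, in annotated order on chromosome 9, with 1 line per group (n = 3); the shaded part is the stretch from *NII1* to *NIT1*. Within the shaded part, *NII1* is the only gene whose 2 HL groups (4.33 and 5.21 CPM) stand far above its LL groups, while Cre09.g410900 is highest in *phot* LL.

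The regulator gene *NIT2* (Cre03.g177700, chromosome 3, 4693035 to 4696776) varied little compared with *NII1*. In WT its levels were 12.2, 13.1 and 12.2 CPM in LL and 9.31, 10.9 and 8.74 CPM after high light. In *phot* they were 13, 14.8 and 13.5 CPM in LL and 10.3, 13.2 and 12.3 CPM after high light. The WT HL libraries lay below all WT LL libraries, whereas the *phot* groups overlapped. In WT, *NIT2* fell by 0.37 ± 0.12 on the log2 scale after high light (adjusted p = 0.0117), by 0.65 without WT HL B, by 0.31 without WT HL C (adjusted p = 0.0581) and by 0.1 with library totals (adjusted p = 0.589). In *phot* the change of *NIT2* was -0.21 ± 0.12 (adjusted p = 0.139). It passed with upper-quartile factors (-0.32, adjusted p = 0.0368) and with only the groups compared (-0.24, adjusted p = 0.0483). The interaction was 0.17 ± 0.17 (adjusted p = 0.423), or 0.42 (adjusted p = 0.0446) without WT HL B. *NIT2* was 0.31 ± 0.12 higher in *phot* HL than in WT HL (adjusted p = 0.0296), with overlapping libraries. That call was lost without *phot* LL A or *phot* LL C (0.28 for each), WT HL A (0.26), WT HL C (0.24), *phot* HL B (0.2) or *phot* HL C (0.26). It was also lost with median-of-ratios size factors (0.23, adjusted p = 0.084), without the filter (0.28, adjusted p = 0.051), with DESeq2 (0.23, adjusted p = 0.102) and with only the groups compared (0.28, adjusted p = 0.0913). The LL difference of *NIT2* was 0.14 ± 0.12 (adjusted p = 0.292), with a sign that turned under another scaling, and was 0.71 (adjusted p = 0.00108) with library totals.

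*NIT2* is one of 15 genes that the study's transcription factor list places in the RWP-RK and Nin-like families. All 15 passed the filter. In WT, 3 of the 15 rose after high light (38.9% of all tested genes did) and 9 fell (35.1%). In *phot* 2 rose (31.2%) and 8 fell (27.7%). With library totals 5 rose and 6 fell in WT, where 71.3% of all tested genes passed the threshold. In all, 80% of the list passed in WT and 66.7% in *phot*, beside 73.9% and 58.9% of all tested genes, with list medians of -0.37 and -0.43 beside 0.05 and 0.03 over all tested genes. The RWP-RK gene Cre06.g285600 was at 11.4 ± 0.913 CPM in low light and 58.6 ± 23.4 CPM in high light in WT, but at 1.01 ± 0.355 and 1.88 ± 0.784 CPM in *phot* (SD, n = 3). It was 11.1-fold lower in *phot* than in WT in LL (adjusted p = 9.15e-07) and 31.7-fold lower in HL (adjusted p = 8.58e-09). In contrast, the RWP-RK gene Cre04.g218050 was 2.94-fold higher in *phot* in LL (adjusted p = 4.39e-08) and 4.42-fold higher in HL (adjusted p = 1.48e-09). A second Nin-like gene, Cre01.g000050, fell after high light in both genotypes, by 1.93 ± 0.17 in WT and by 0.86 ± 0.14 in *phot*, and was 4.47-fold higher in *phot* HL than in WT HL (adjusted p = 3.94e-08). These relatives were among those named for large changes past the threshold at an average of at least 3 log2 CPM, so they do not stand for the list.

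The ammonium transporter gene *AMT4* (Cre13.g569850, chromosome 13, 1187847 to 1192671) separated the genotypes at either light intensity. WT LL held 5, 2 and 3 counts and WT HL 8, 4 and 7 counts of *AMT4*. The *phot* libraries held 127, 160 and 139 counts in LL and 145, 145 and 103 counts in HL. The genotypes did not overlap, with 103 counts in the lowest *phot* library and 8 in the highest WT library. The mean level in WT was 0.152 ± 0.0734 CPM in LL and 0.233 ± 0.105 CPM in HL, and that in *phot* was 4.3 ± 1.02 CPM in LL and 3.7 ± 0.562 CPM in HL (SD, n = 3). In LL *AMT4* was 4.81 ± 0.36 higher in *phot* on the log2 scale (28.1-fold, adjusted p = 3.23e-08). In HL it was 4.02 ± 0.32 higher (16.3-fold, adjusted p = 4.3e-08). *AMT4* passed the filter through its *phot* libraries alone, the high side of this comparison, and WT LL B and WT LL C were at or under the limit of 3 counts. The 95% counting intervals of the ratio of summed counts were 15.4 to 60 in LL and 10.5 to 27.9 in HL.

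A light response of *AMT4* was not found in either genotype. The change was 0.58 ± 0.6 in WT (adjusted p = 0.391, 95% interval -0.59 to 1.75) and -0.21 ± 0.2 in *phot* (adjusted p = 0.393, interval -0.61 to 0.19), with overlapping libraries in both. The interaction was -0.79 ± 0.63 (adjusted p = 0.31). At the WT counts of 2 to 8 its WT light response was poorly determined. Across the other scalings and tests, the LL difference between genotypes lay between 4.64 and 5.37 and the HL difference between 3.95 and 4.34.

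Among the glutamine synthetase genes, *GLN1* responded to light in opposite directions in WT and *phot*. *GLN1* (Cre02.g113200, chromosome 2, 6098426 to 6103996), the gene of the cytosolic enzyme, was at 218, 253 and 269 CPM in the LL libraries of WT and at 164, 184 and 173 CPM in its HL libraries. In *phot* it was at 214, 214 and 200 CPM in LL and at 374, 370 and 360 CPM in HL. All HL libraries were below all LL libraries in WT and above them in *phot*. *GLN1* fell by 0.51 ± 0.1 on the log2 scale in WT (adjusted p = 0.000392, or 0.23 and 0.0866 with library totals) and rose by 0.81 ± 0.1 in *phot* (adjusted p = 1.07e-05). The interaction was 1.32 ± 0.14 (adjusted p = 4.94e-06). In HL the transcript was 2.12-fold higher in *phot* than in WT (adjusted p = 2.68e-07). In LL its difference was -0.24 ± 0.1 (adjusted p = 0.0498) and turned to 0.35 (adjusted p = 0.0118) with library totals. The LL call of *GLN1* was also lost without WT LL B (-0.22), WT LL C (-0.2), *phot* LL B (-0.25) or WT HL C (-0.24). It was as large as -0.43 without *phot* LL A, where the TMM reference library also changed. No direction is therefore given for the LL difference of *GLN1*.

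*GLN2* (Cre12.g530650, chromosome 12, 5461696 to 5465279), the gene of the chloroplast enzyme, fell after high light in both genotypes and was lower in *phot* at both light intensities. In WT its levels were 1780, 1960 and 2760 CPM in LL and 1260, 1020 and 1090 CPM in HL. In *phot* they were 986, 1060 and 1080 CPM in LL and 611, 567 and 618 CPM in HL. WT LL C stood highest, and also had the lowest TMM factor (0.66), and without it the LL difference between the genotypes was -0.88 in place of -1.05. The light response of *GLN2* was -0.95 ± 0.15 in WT (adjusted p = 5.36e-05) and -0.8 ± 0.15 in *phot* (adjusted p = 0.000434). The interaction was 0.15 ± 0.21 (adjusted p = 0.585, 95% interval -0.27 to 0.57), with a sign that depended on the scaling. The transcript was 2.08-fold lower in *phot* than in WT in LL (adjusted p = 2.33e-05) and 1.88-fold lower in HL (adjusted p = 8.56e-05). With library totals these differences were smaller, at -0.45 in LL and -0.58 in HL on the log2 scale in place of -1.05 and -0.91. The WT libraries lay above the *phot* libraries in both conditions.

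*GLN3* (Cre12.g530600, chromosome 12, 5458758 to 5461595) ends 100 bases before *GLN2* in the annotation, and whether reads of the similar glutamine synthetase genes were split between them was not tested. In WT it was at 6.29, 6.45 and 5.48 CPM in LL and at 3.01, 1.74 and 1.88 CPM after high light. In *phot* it was at 6.26, 7.24 and 6.22 CPM in LL and at 4.64, 3.61 and 4.64 CPM after high light. *GLN3* was thus lower after high light in every library of both genotypes, and the fall was larger in WT. It fell by 1.48 ± 0.19 in WT (adjusted p = 6.62e-06) and by 0.62 ± 0.17 in *phot* (adjusted p = 0.00673). The interaction was 0.87 ± 0.26 (adjusted p = 0.0119, or 0.62 and 0.0817 with library totals). *GLN3* was 1.97-fold higher in *phot* HL than in WT HL (adjusted p = 0.000358), where *GLN2* beside it was lower, and its LL difference was 0.11 ± 0.17 (adjusted p = 0.585), with a sign that turned under another scaling, or 0.67 (adjusted p = 0.00538) with library totals.

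The glutamate synthase genes differed more between the genotypes after high light than in low light. *GSN1* (Cre13.g592200, chromosome 13, 4180050 to 4191854), the gene of the NADH-dependent enzyme, had levels of 91.7, 114 and 88.2 CPM under LL and of 34.4, 47.6 and 30.2 CPM under HL in WT. In *phot* it was at 347, 292 and 340 CPM in LL and at 477, 451 and 423 CPM in HL. The 4 groups did not overlap. *GSN1* was 3.33-fold higher in *phot* in LL (1.73 ± 0.16, adjusted p = 2.39e-07) and 12-fold higher in HL (3.59 ± 0.17, adjusted p = 2.52e-10), where 2.92% of all tested genes had a larger difference in either direction. After high light it fell by 1.39 ± 0.16 in WT (adjusted p = 1.68e-06) and rose by 0.47 ± 0.15 in *phot* (adjusted p = 0.0178). The rise in *phot* was lost without *phot* LL B or *phot* HL A (0.39 for each, adjusted p = 0.0779 and 0.0742) and with library totals (adjusted p = 0.0615) or upper-quartile factors (0.35, adjusted p = 0.0676). The interaction of *GSN1* was 1.85 ± 0.22 (adjusted p = 1.05e-05), the largest of the 4 interactions past the threshold.

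*GSF1* (Cre12.g514050, chromosome 12, 3619877 to 3628602), the gene of the ferredoxin-dependent enzyme, rose after high light in both genotypes and more in WT. In WT its levels were 391, 427 and 453 CPM in LL and 1190, 910 and 984 CPM in HL. In *phot* they were 353, 373 and 383 CPM in LL and 479, 482 and 497 CPM in HL. The WT HL libraries stood apart from all others. *GSF1* rose by 1.28 ± 0.12 in WT (adjusted p = 1.53e-07) and by 0.39 ± 0.12 in *phot* (adjusted p = 0.00893, or 0.33 and 0.0571 without *phot* LL A). The interaction was -0.89 ± 0.16 (adjusted p = 0.000435). In HL the transcript was 2.12-fold lower in *phot* (adjusted p = 1e-06). In LL the difference of *GSF1* was -0.2 ± 0.12 (adjusted p = 0.138). It passed the threshold when any one of 7 libraries was left out, at -0.35 without *phot* LL A, -0.4 without *phot* LL C and -0.38 without WT HL A, WT HL B or any *phot* HL library. It also passed with median-of-ratios size factors (-0.35, adjusted p = 0.0208), without the filter (-0.33, adjusted p = 0.0224), with DESeq2 (-0.35, adjusted p = 0.00526) and with only the groups compared (-0.37, adjusted p = 0.0165). With library totals it turned to 0.38 (adjusted p = 0.00286).

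**Figure D3:**
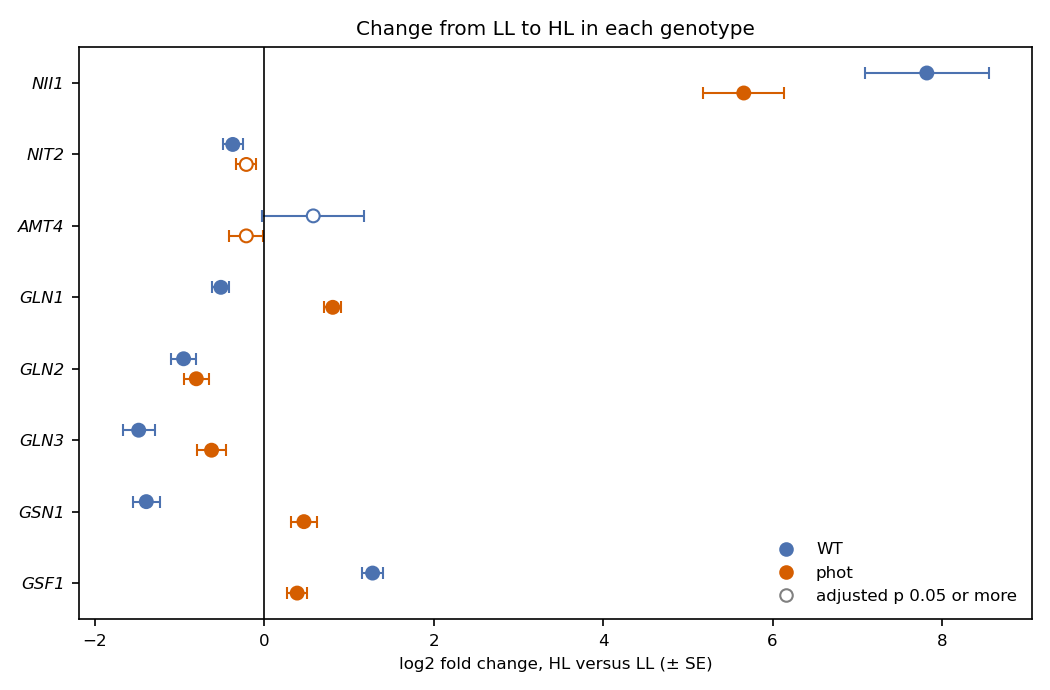
Log2 fold change from LL to HL ± SE for the 8 tested genes in WT and in *phot* (3 libraries per group); open circles mark an adjusted p of 0.05 or more. *GLN1* and *GSN1* lie on opposite sides of 0 in WT and *phot* (-0.51 and 0.81, -1.39 and 0.47), whereas the WT point of *NII1* is a fitted value against a group at the detection limit, for which the data give only a bound of 32-fold.

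Ratios taken within a library do not depend on library scaling, and they were computed to describe the glutamine and glutamate synthase genes without it. *GSN1* and *GSF1* had nearly equal counts in the *phot* libraries, with a log2 ratio of -0.185 ± 0.166 in LL and -0.112 ± 0.111 in HL. In WT the log2 ratio was -2.12 ± 0.229 in LL and -4.8 ± 0.471 in HL (SD, n = 3). The counts of the NADH-dependent enzyme thus fell 6.41-fold relative to those of the ferredoxin-dependent enzyme after high light in WT, while the *phot* groups overlapped and their ratio differed 1.05-fold (exact permutation test, two-sided, p = 0.6). The ratio of *GSN1* to *GSF1* was 3.81-fold higher in *phot* than in WT in LL and 25.8-fold higher in HL, with no overlap between libraries.

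*GLN2* gave most of the glutamine synthetase counts in every library. The share of *GLN1* in the summed counts of the 3 genes was 10.4 ± 1.33% (LL) and 13.5 ± 1.88% (HL) in WT and 16.7 ± 1.1% in *phot* LL. It was 37.9 ± 1.36% in *phot* HL (SD, n = 3), where *GLN2* gave 61.6 ± 1.32%. The share of *GLN3* stayed under 1% in every group, between 0.168 ± 0.0374% in WT HL and 0.523 ± 0.0424% in *phot* LL. The rise of the *GLN1* share after high light was 21.2 ± 1.01 percentage points in *phot* and 3.08 ± 1.33 in WT (± SE of the difference). The light conditions did not overlap in either genotype. These are shares of counts and not of molecules, since transcript lengths were not used. For the 20 ratio and share comparisons, an exact two-sided permutation test of 3 against 3 libraries cannot go below p = 0.1, which gave an adjusted p of 0.111 for all comparisons without overlap.

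**Figure D4:**
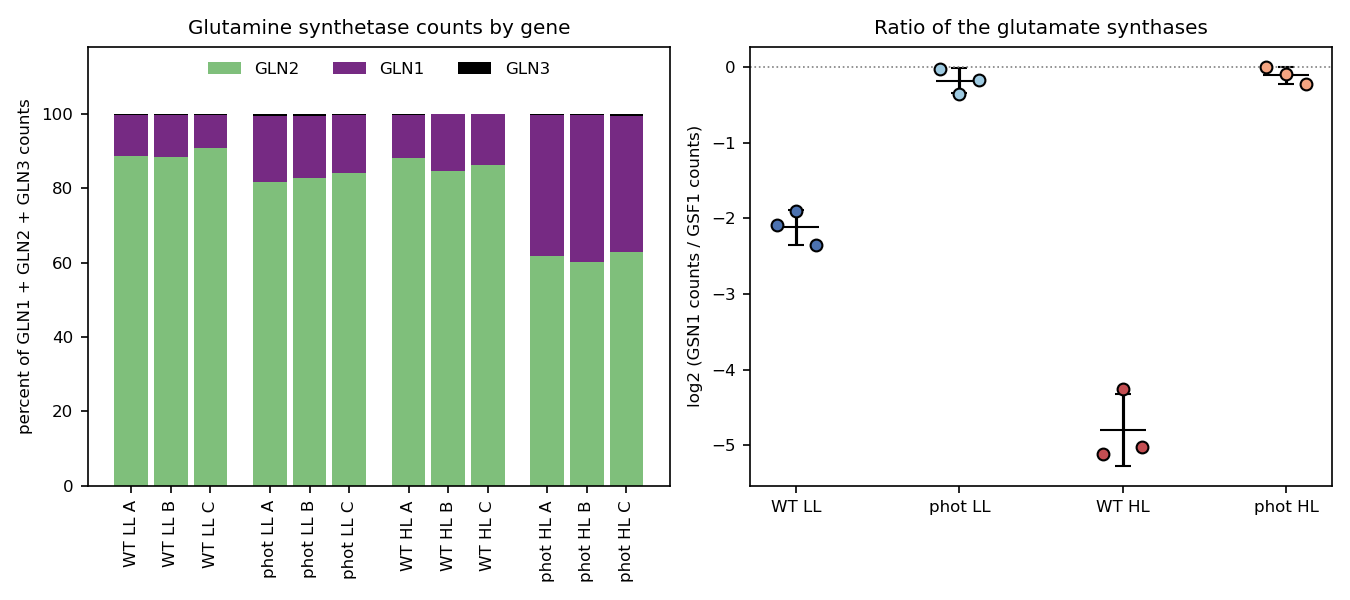
Left, percent of the summed *GLN1*, *GLN2* and *GLN3* counts from each gene in each of the 12 libraries; right, log2 ratio of *GSN1* to *GSF1* counts per library, with the group mean and SD (n = 3). The *GLN1* share is 36.6 to 39.3% in the *phot* HL libraries and at most 17.7% in the others, and the ratio of the glutamate synthases is near 0 in *phot* and between -5.11 and -1.91 in WT.

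The number of the 8 tested genes past the threshold is given beside the share of all tested genes that passed it. For HL versus LL in WT, 7 passed, beside 73.9% of all tested genes. Of these, 2 were higher (38.9% of all genes) and 5 lower (35.1%), or 2 and 3 with library totals (background 71.3%). In *phot* 6 passed (background 58.9%), 4 of them higher (31.2%) and 2 lower (27.7%). With upper-quartile factors it was 3 and 3 (background 58.7%). For *phot* versus WT in LL, 4 passed (background 72.3%), of which 2 were higher (44.3%) and 2 lower (28%). With library totals 7 were higher and 1 lower, where 82.6% of all tested genes passed and their median was 0.79. In HL, 7 passed (background 73.5%), 5 of them higher (38.1%) and 2 lower (35.4%). The interaction passed for 4 of the 8 (background 51.8%), with *GLN1*, *GLN3* and *GSN1* positive (23.5%) and *GSF1* negative (28.3%). Tested against a log2 fold change of 1, the light response passed for *NII1*, *GSF1*, *GLN3* and *GSN1* in WT (28.7% of all genes) and for *NII1* in *phot* (10.6%). In that test *AMT4* and *GSN1* passed between the genotypes in LL (20.3%) and in HL (24.9%), and *GLN1* and *GSN1* passed for the interaction (12.2%). In all these counts, *NII1* passed the filter only through its HL libraries and *AMT4* only through its *phot* libraries. These are the high sides of their comparisons, so neither call is independent of the filter. The WT value of *NII1* is also a fit against a group at the limit of 3 counts. The median over the 8 genes was -0.44 for the light response in WT and 0.09 in *phot*, beside 0.05 and 0.03 over all genes. In the genotype comparison it was 0.12 in LL and 0.64 in HL, beside 0.22 and 0.05.

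**Figure D5:**
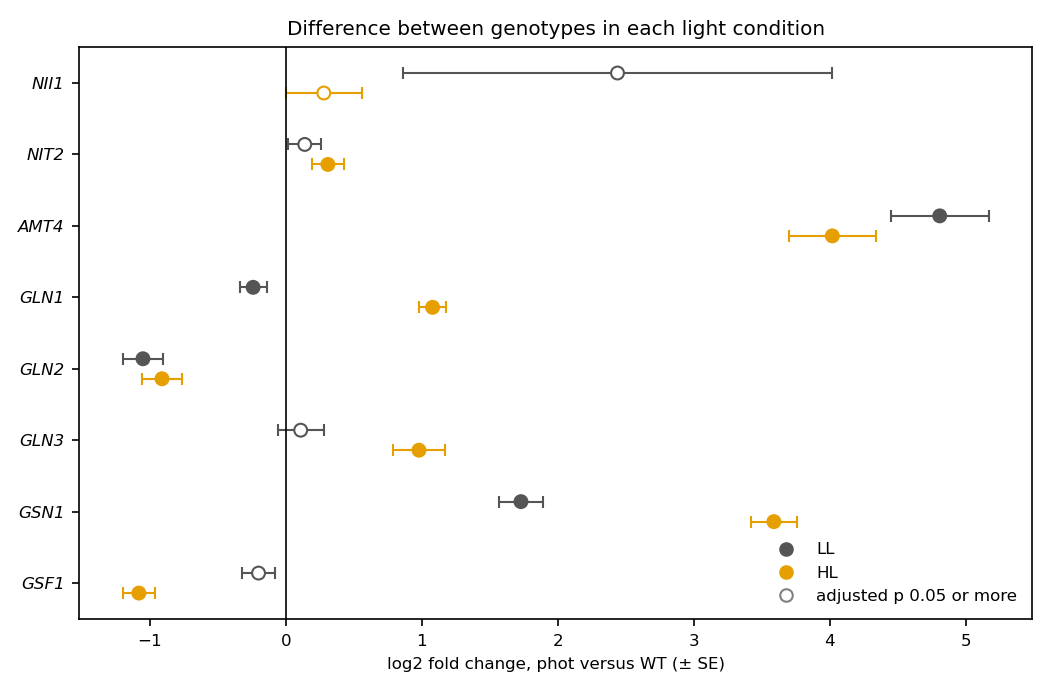
Log2 fold change of *phot* versus WT ± SE for the 8 tested genes in LL and in HL (3 libraries per group); open circles mark an adjusted p of 0.05 or more. *AMT4* lies above 4 in both conditions, *GSN1* goes from 1.73 in LL to 3.59 in HL, and *GLN2* is the only gene that is about equally lower in *phot* in both (-1.05 and -0.91).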

How the data were processed

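The authors prepared stranded mRNA libraries, aligned reads with STAR (version 2.5.3a in the submitters' processing notes) to the Phytozome assembly version 5, and counted reads per gene with HTSeq-count on the reverse strand. The authors deposited raw counts, 1 column per library and not normalized. The study's methods describe the replicates as biological. Column names gave each library's group but not its replicate number, so the letters A, B and C follow the order of the columns and pair nothing. Within-group pairs differed by more than sampling noise (chi-square per degree of freedom 7.69 to 67.7), so none was merged.

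Genes over 1 CPM in at least 4 libraries were fitted together with edgeR 4.0.16 (limma 3.58.1, R 4.3.3), with TMM factors, 1 coefficient per group over 12 libraries, the quasi-likelihood test and Benjamini-Hochberg adjustment at 0.05. The script was tested on simulated counts. Counts of at most 3 per library were treated as the limit that a count of 0 allows, and intervals of summed counts are 95% exact intervals. Limits and intervals cover counting error only, since reads carried no molecular identifiers. Shares and ratios were compared by exact permutation tests with scipy 1.17.1.

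Positions came from the RefSeq annotation of assembly v5.5, whose locus tags held 17738 of the 17741 identifiers. The authors name version 5, and whether their gene limits are the same was not tested. The annotation paired no names with the identifiers. All 10 genes were named, as were the genes between *NII1* and *NIT1* and, of the neighbour and RWP-RK lists, at most the 2 genes per comparison with the largest rise and the 2 with the largest fall with an average of at least 3 log2 CPM. The genes and lists were chosen with earlier results of these data known. The alternatives were 3 other scalings, no filter, DESeq2 1.42.0, limma voom, a threshold of 1 on the absolute log2 fold change, only the groups compared, and each library left out in turn.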

Additional observations from a re-analysis of the deposited data

Results flagged for a closer look

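For 4 of the 8 tested genes, the light response differed between WT and *phot* by edgeR's quasi-likelihood test of the interaction (Benjamini-Hochberg adjusted), as 51.8% of all tested genes did. The difference (response in *phot* minus response in WT, log2) was 1.32 for *GLN1*. With TMM scaling, HL was lower than LL in WT and higher in *phot* in all libraries. The WT fall of *GLN1* was weaker with library totals (-0.23, adjusted p = 0.0866). The difference was 1.85 for *GSN1*, with the same directions, although its rise in *phot* did not pass with library totals or upper-quartile factors. For *GLN3* it was 0.87, with a fall in both genotypes, but it did not pass with library totals (0.62, adjusted p = 0.0817). For *GSF1* it was -0.89, with a rise in both genotypes, of which the rise in *phot* did not pass without *phot* LL A (0.33, adjusted p = 0.0571). The GSN1 and GLN1 interactions also passed the test against a log2 fold change of 1, with adjusted p-values of 0.00235 and 0.0452.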

How the results depend on the processing

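Over all alternatives, 792 values of single genes were recomputed, of which 706 kept their direction and their side of the threshold. Of the others, 41 lost the threshold, 18 gained it and 27 changed sign. The test against a log2 fold change of 1 gave 17 of the 41 losses. It keeps the main estimates and is stricter, so these 17 do not show a change with the processing. With limma voom, all 40 values kept both, whereas with library totals 29 of 40 did. Tested against a log2 fold change of 1, the number of genes past the threshold was 4 for the light response in WT (*NII1*, *GSF1*, *GLN3*, *GSN1*), 1 in *phot* (*NII1*), 2 for each genotype comparison (*AMT4*, *GSN1*) and 2 for the interaction (*GLN1*, *GSN1*). Among these, *NII1* and *AMT4* had passed the filter only through the groups where they were high. With library totals, all 8 tested genes passed for *phot* versus WT in LL, where 82.6% of all tested genes passed and their median was 0.79. Without the filter, which adds the 2 unnamed genes of the nitrate stretch to its neighbours, 9 of 12 passed for the light response in WT. With the filter, 5 of 10 did. The lower calls went from 3 to 7, more than the 2 added genes can give. In the fit without the filter, 74.2% of the genes that pass the filter were called, a share that leaves out the added genes. For *phot* versus WT in HL, 5 of the 10 neighbours passed with library totals and 8 with TMM, beside 71.4% and 73.5% of all genes.

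The signs that changed were mostly of small differences between the genotypes in LL. With library totals *GLN1* was at 0.35 and *GSF1* at 0.38. *NIT2* was at -0.02 with median-of-ratios size factors and with DESeq2, and at -0.03 with only the groups compared. *GLN3* was at -0.05 with median-of-ratios size factors and with DESeq2, -0.03 without the filter and -0.07 with only the groups compared. Leaving out each library in turn gave -0.04 to 0.18 for *NIT2* and -0.08 to 0.16 for *GLN3* in LL, and -0.09 to 0.64 for *NII1* in HL. The TMM reference library was WT HL A with all 12 libraries and became *phot* LL B when any of 7 libraries was left out. These were *phot* LL A, *phot* LL C, WT HL A, WT HL B and each *phot* HL library. The change moved the median of all genes in the LL comparison from 0.22 to 0.04. Values without one of these libraries, among them those of *GSF1*, *GLN1* and *NIT2*, thus include a change of scaling. With library totals the interaction was -0.09 for *NIT2* and -0.13 for *GLN2*, and leaving out libraries gave -0.03 to 0.39 for *GLN2*. The share of *GLN1* per kilobase of gene span, introns included, an alternative chosen after seeing the data, was 6.94% in WT LL, 11.4% in *phot* LL, 9.11% in WT HL and 28.2% in *phot* HL.

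No paired analysis was possible because the columns carry no replicate number. A share with coding length was not run. The depth of 27136674 to 33906264 counts limits *NIT1*, *NRT2.1*, *NII1* in LL and *AMT4* in WT, which rest on 0 to 8 counts per library.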
